A study of Mus musculus with 10 samples.

Results

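Genes at loci that carry inherited risk for Alzheimer's disease were examined in brain endothelial cells (BECs). The list held 10 genes, Bin1, Cd2ap, Sorl1, Fermt2, Ptk2b, Rin3, Inpp5d, Plcg2, Abca7 and Cass4. They were looked up by their GENCODE M21 symbols in the deposited table of 14106 genes. The table held 9 of them. Cass4, a docking protein of focal adhesions, had no row and was not analysed here. The rule that picked the rows used gene names and no expression value.

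The BECs came from cortical tissue of female mice aged 1 year, either APP/PS1 or age-matched controls on the same background (C3H/BL6, WT in the sample labels), and 5 libraries of each group were sequenced in bulk. The APP/PS1 genotype combines a transgene for amyloid precursor protein (a mouse/human chimera bearing the Swedish mutation) with one for mutant human presenilin 1. The study describes their expression as ubiquitous, and these mice deposit amyloid-beta plaques with age. Both groups went through the same isolation, in which the mice were perfused, the meninges were removed, the cortex was digested with enzymes, myelin was depleted and the CD31 positive cells were enriched on microbeads. It was not stated if libraries were made from single or pooled mice, so the p values measure the spread between these libraries.

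Human genetics links these loci to disease through variants near the genes, many of which are best known from microglia or neurons. Their products fall into a few cellular roles. Bin1, Cd2ap, Sorl1 and Rin3 act in endocytosis and in the sorting of cargo between endosomes, Fermt2, Ptk2b and Cass4 act at integrin adhesions, Inpp5d and Plcg2 handle phosphoinositides below immune receptors, and Abca7 moves lipids across membranes. Brain endothelium takes up and transports large molecules by endocytosis and is held on its basement membrane by integrins. The data addressed how strongly each gene is expressed in the BEC isolates and whether its level differed between APP/PS1 and control mice.

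The deposited values were log2 CPM (counts scaled to the size of the library) after batch correction by the authors. They converted back to whole adjusted counts, which summed to between 22993426 and 126686149 in the control libraries and to between 22371766 and 114525432 in the APP/PS1 libraries, with replicate 1 the smallest in each group. After the correction, libraries with the same replicate number were close to mirror images. Over 10873 genes, their deviations from the group means had rank correlations between -0.999 and -0.989, so the spread within a group and the spread of the paired differences carry nearly the same information, and groups that do not overlap and 5 pairs of 1 sign are nearly the same observation. The sample labels give 4 batches, of which replicates 4 and 5 share 1, and each paired difference is also a difference within a batch. The endothelial label was checked against its markers. All 16 of 16 endothelial markers were measured, with a median level of 8.14 log2 CPM per kb of exon, and their summed level was between 33596 and 36136 CPM in the control libraries and between 32895 and 35422 CPM in the APP/PS1 libraries.

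Promoter sequence is shown for 3 of the genes to place the values on the genome, for Fermt2 as the gene with the highest level per kb, for Sorl1 as the gene with the largest difference between the groups, and for Inpp5d as the gene whose promoter window has the fewest CpG dinucleotides. The windows run from 250 bases before to 50 bases after the RefSeq start site in GRCm38.p6 (mm10) and were given for 7 of the 9 genes. Capitals mark matches, on either strand, to GGGCGG (the core of a GC box, bound by Sp factors), CACGTG (an E-box) and AGGAAGT (an Ets site of the kind bound by the macrophage factor PU.1). These motifs were chosen after the sequences were seen, no 2 matches overlapped, and a match is a description of letters and not of binding.
Fermt2, chr14:45530016-45530315, minus strand: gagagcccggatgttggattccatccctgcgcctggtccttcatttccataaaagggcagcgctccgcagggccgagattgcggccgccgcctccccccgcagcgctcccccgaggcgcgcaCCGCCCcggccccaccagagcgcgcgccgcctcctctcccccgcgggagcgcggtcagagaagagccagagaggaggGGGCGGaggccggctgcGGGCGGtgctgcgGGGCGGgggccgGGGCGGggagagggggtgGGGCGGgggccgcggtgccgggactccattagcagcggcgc
Sorl1, chr9:42124248-42124547, minus strand: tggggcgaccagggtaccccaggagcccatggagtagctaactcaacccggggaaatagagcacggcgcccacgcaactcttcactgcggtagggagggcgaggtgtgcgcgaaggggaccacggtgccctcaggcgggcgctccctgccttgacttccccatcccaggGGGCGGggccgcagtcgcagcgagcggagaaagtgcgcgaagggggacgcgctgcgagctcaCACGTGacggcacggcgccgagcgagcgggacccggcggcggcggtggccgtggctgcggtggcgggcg
Inpp5d, chr1:87620062-87620361, plus strand: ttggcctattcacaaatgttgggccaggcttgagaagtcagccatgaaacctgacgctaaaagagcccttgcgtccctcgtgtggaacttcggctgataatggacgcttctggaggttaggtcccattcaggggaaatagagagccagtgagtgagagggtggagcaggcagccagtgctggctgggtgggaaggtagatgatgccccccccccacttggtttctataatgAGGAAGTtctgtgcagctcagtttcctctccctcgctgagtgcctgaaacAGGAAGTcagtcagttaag
The Fermt2 window was 76.7% G or C with 37 CpG and 6 matches to GGGCGG. The Sorl1 window was 72.3% G or C, also with 37 CpG, and held 1 GGGCGG and 1 CACGTG. The Inpp5d window was 53.7% G or C with 6 CpG, near the medians of 52.7% and 7 over 32851 windows, and it held 2 matches to AGGAAGT and none to the other 2 motifs. GGGCGG occurred in 6 of the 7 windows (35.7% of all windows), CACGTG in 2 of the 7, those of Sorl1 and Plcg2 (7.15% of all windows), AGGAAGT in 1 of the 7 (9.35%) and TATAAA (the core of many classical promoters) in 0 of the 7 (13.6%).

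The 9 genes spanned a wide range of expression in the isolates. Per kb of exon, the mean level over the 10 libraries was highest for Fermt2 at 6.36 log2 CPM per kb, above 97.1% of the genes in the table. Cd2ap followed at 5.02 log2 CPM per kb. Rin3 and Plcg2 came next at 4.03 and 4.01 log2 CPM per kb, a gap within the SD of either gene over the libraries (0.14 and 0.13), so their order cannot be read. Each other gap between neighbours exceeded the SD of both genes. Abca7 stood at 3.74, Inpp5d at 2.83, Bin1 at 2.23 and Ptk2b at 0.52 log2 CPM per kb. Sorl1 was lowest at -3.06 log2 CPM per kb, above only 2.13% of the genes in the table. When the length of the longest basic transcript replaced that of all exons, an alternative added after the data were seen, the order was kept, with Fermt2 at 7.02, Cd2ap at 6.58, Rin3 at 4.84, Plcg2 at 4.01 and Sorl1 at -2.98 log2 CPM per kb.

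Markers of other cells gave a scale for these levels. The median marker stood at 2.57 log2 CPM per kb for platelets and erythroid cells, 2.33 for mural cells and -0.10 for microglia and leukocytes. It stood at -0.22 for oligodendrocytes, -0.49 for astrocytes and -0.90 for neurons, against a median of 3.74 for the 9 risk-locus genes. Inpp5d and Plcg2, which are best known from microglia, stood above the median marker of microglia and leukocytes, whose 12 measured genes of 18 summed to between 86.1 and 105 CPM in the control libraries and to between 88.2 and 107 CPM in the APP/PS1 libraries. Aif1, Itgam, Ly86, Fcgr3, Trem2 and Tyrobp of that list had no row. Bin1 and Ptk2b lay below the median marker of mural cells and that of platelets and erythroid cells. Sorl1 lay below the median marker of each of these lists.

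**Figure D1:**
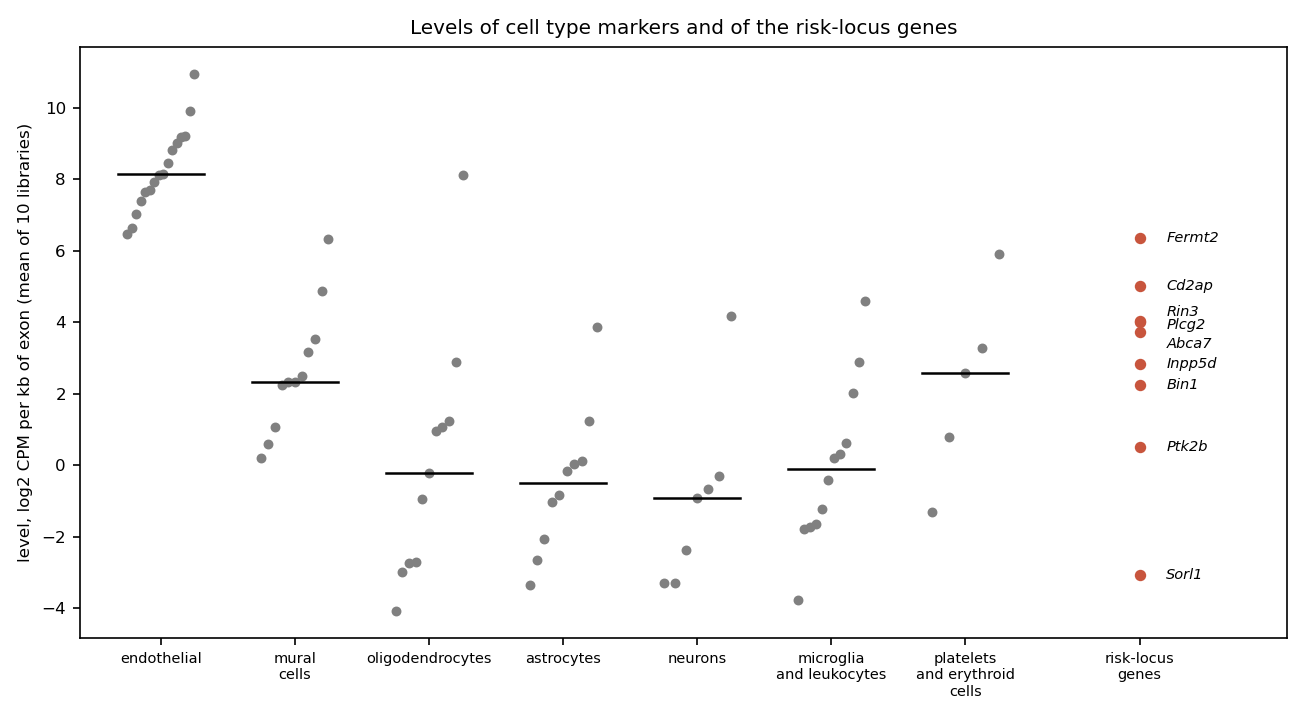
Mean level over 10 libraries, in log2 CPM per kb of exon (vertical axis), of the markers of 7 cell types (grey points, 1 per measured gene, black line at the median) and of the 9 risk-locus genes (red points). Fermt2 at 6.36 lies near the lowest endothelial markers, whereas Sorl1 at -3.06 lies among the lowest markers of other cells.

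Between the groups, no risk-locus gene passed the test. In the fit of limma to all genes, with genotype and the replicate number as terms, 0 of the 9 genes had an adjusted p under 0.05, as did 0% of all 14106 genes, among which the smallest adjusted p was 0.195. Of the 9 genes, 5 were higher and 4 lower in APP/PS1, where 48.2% of all genes were higher, and their median log2 fold change was 0.03 against -0.0038 over all genes. At an unadjusted p under 0.05 there were 2 of the 9, Sorl1 and Ptk2b, against 8.03% of all genes. Bin1, Sorl1 and Ptk2b were lower in all 5 pairs (5% of all genes) and did not overlap between the groups (7.88% of all genes), and 0 of the 9 were higher in all 5 pairs (2.99% of all genes). These 3 are also the weakest of the 9 in log2 CPM, and the only ones not above the median gene of the table (4.30 log2 CPM). Being lower in all 5 pairs was seen in 7.1% of genes at or below that level and in 2.89% of genes above it. Without the replicate number in the fit, 2 of the 9 genes passed, again Sorl1 and Ptk2b, with 4.59% of all genes.

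**Figure D2:**
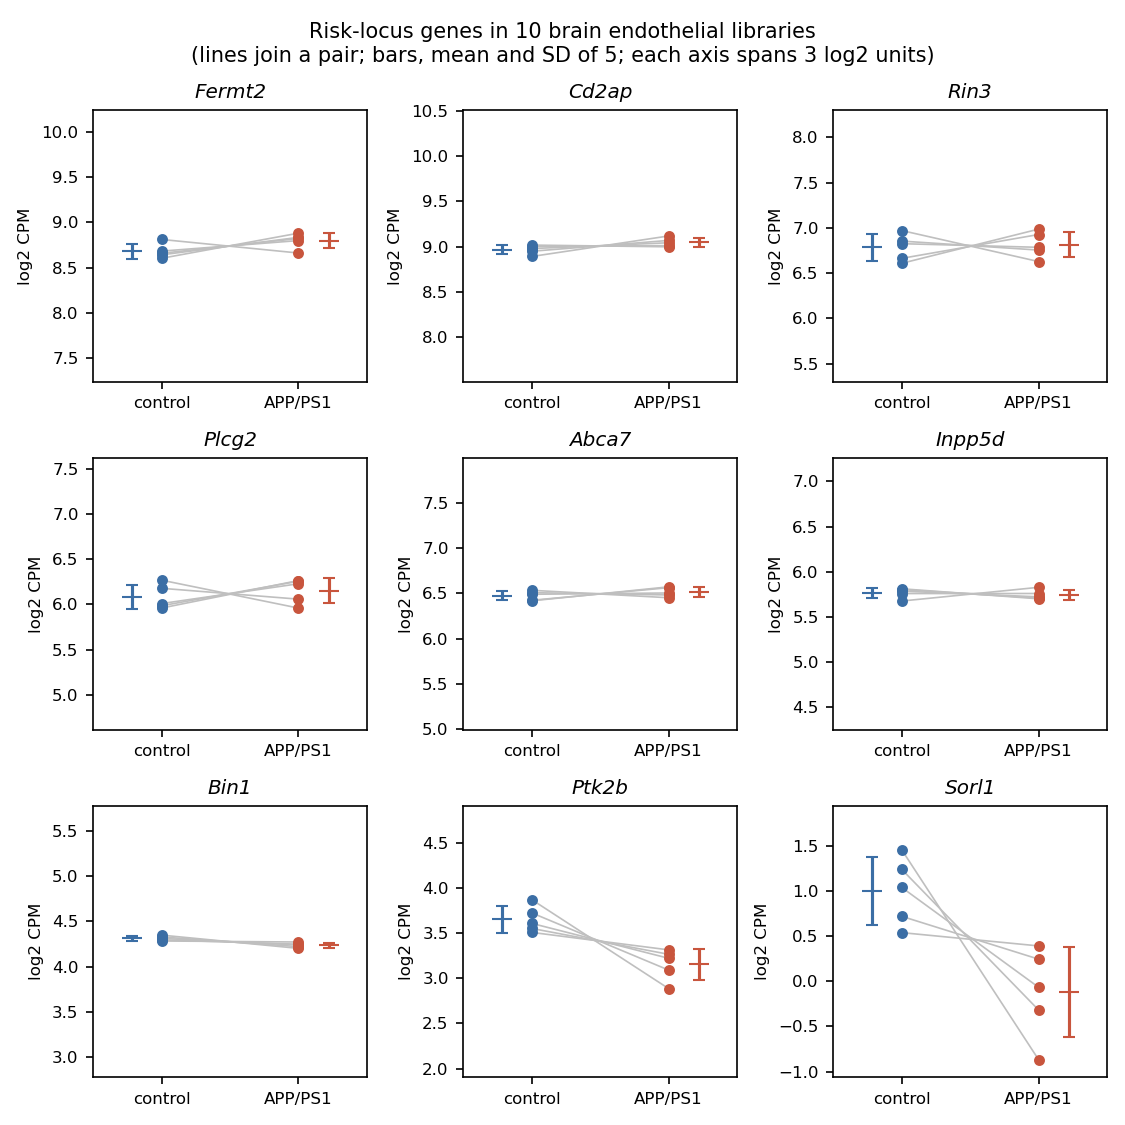
Log2 CPM (vertical axis, 3 log2 units in each panel) of the 9 genes in the 5 control and 5 APP/PS1 libraries, with grey lines joining libraries of the same replicate number and bars for the mean and SD of each group. All 5 lines fall in the panels of Bin1, Ptk2b and Sorl1, and lines run in both directions in the other 6.

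Among the genes of endocytosis and endosomal sorting, Sorl1 showed the largest difference. Sorl1 encodes a sorting receptor that carries cargo from endosomes back to the Golgi and to the cell surface. The gene (ENSMUSG00000049313) spans chr9:41964720-42124297 on the minus strand in mm10, where an antisense gene, Gm16214, overlaps it and strand use in counting was not stated. Its levels in the control libraries 1 to 5 were 1.24, 0.54, 1.04, 0.72 and 1.45 log2 CPM, and in the APP/PS1 libraries -0.32, 0.39, -0.07, 0.24 and -0.87 log2 CPM. Every APP/PS1 library was below every control library, and the nearest values of the 2 groups, 0.54 and 0.39, were those of replicate 2. The mean was 1.00 ± 0.37 log2 CPM in control and -0.12 ± 0.50 log2 CPM in APP/PS1 (SD, n = 5). The log2 fold change was -1.12 (SE 0.32, 95% interval -1.92 to -0.32), a change of -54.0% on the linear scale. The adjusted p of limma was 0.554, and the two-sided exact sign-flip test over the 5 pairs gave p = 0.062, the smallest that 5 pairs can give. The fit without the replicate number gave an adjusted p of 0.0441. These levels rest on few counts, between 17 and 333 adjusted counts in a library, with 17 in the APP/PS1 library and 54 in the control library of replicate 1.

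Bin1, which bends and senses membranes and acts in endocytic recycling, was lower by a small amount, not past the test. The gene lies at chr18:32377230-32435737 on the plus strand. Its control libraries 1 to 5 gave 4.35, 4.30, 4.31, 4.28 and 4.33 log2 CPM, and its APP/PS1 libraries gave 4.20, 4.25, 4.24, 4.27 and 4.22 log2 CPM. The groups did not overlap, although those of replicate 4 differed by only 0.01 log2 units. The log2 fold change was -0.08 (SE 0.04, 95% interval -0.18 to 0.03), with an adjusted p of 0.768 by limma with the pairs, 0.0848 without them and an exact sign-flip p of 0.062.

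Cd2ap, an adaptor that links membrane receptors and the endocytic machinery to actin, was among the strongly expressed genes, at chr17:42792951-42876665 on the minus strand. Control libraries gave 8.89, 9.001, 8.95, 8.98 and 9.02 log2 CPM and APP/PS1 libraries 9.12, 9.01, 9.07, 9.04 and 8.998 log2 CPM. The groups overlapped, and the APP/PS1 library was the higher of the pair in 4 of 5 pairs. The log2 fold change was 0.08 (95% interval -0.05 to 0.21, adjusted p = 0.809 by limma).

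Rin3, an activator of the early endosomal GTPase Rab5, varied more between libraries than between the groups. The gene lies at chr12:102283048-102390855 on the plus strand. Control libraries gave 6.66, 6.97, 6.82, 6.61 and 6.85 log2 CPM and APP/PS1 libraries 6.93, 6.63, 6.78, 6.99 and 6.75 log2 CPM. The paired differences took both signs, from -0.34 in pair 2 to 0.38 in pair 4, around a log2 fold change of 0.03 (95% interval -0.25 to 0.31, adjusted p = 0.963 by limma). Its sign was not stable, with -0.0055 under scaling by library size alone.

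A further list of endocytosis and endosomal sorting genes did not hold Bin1 or Sorl1. Of its genes, 40 of 46 were measured, with 28 higher and 12 lower. The median log2 fold change was 0.05, and 0 passed the test. The 2 ends of this list were taken among the 39 genes with a mean of at least 1 log2 CPM. Highest was Picalm, a clathrin adaptor at another risk locus, with 0.19 (adjusted p = 0.598 by limma). Rin2, a relative of Rin3, followed with 0.14. Lowest were Dnm1, a dynamin of synaptic vesicles, with -0.07, and Sh3glb2, an endophilin, with -0.06. Sorcs2, which lay below that mean, had -0.86 and was lower in 4 of 5 pairs.

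At integrin adhesions, Ptk2b and Fermt2 had log2 fold changes of opposite sign, neither past the test. Ptk2b encodes Pyk2, a calcium-responsive tyrosine kinase of the focal adhesion kinase family, and lies at chr14:66153257-66281052 on the minus strand. Its control libraries 1 to 5 gave 3.87, 3.55, 3.61, 3.72 and 3.51 log2 CPM, and its APP/PS1 libraries gave 2.89, 3.26, 3.22, 3.09 and 3.31 log2 CPM. Every APP/PS1 library lay below every control library, and replicate 1, the shallowest pair, held the highest control and the lowest APP/PS1 value. The mean was 3.65 ± 0.15 log2 CPM in control and 3.16 ± 0.17 log2 CPM in APP/PS1 (SD, n = 5), a log2 fold change of -0.50 (SE 0.12, 95% interval -0.80 to -0.19), a change of -29.1% on the linear scale. The adjusted p of limma was 0.537 with the pairs and 0.0242 without them, and the exact sign-flip test gave p = 0.062.

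Fermt2, or kindlin-2, an activator of integrins, lies at chr14:45458795-45530118 on the minus strand. It gave 8.64, 8.81, 8.68, 8.60 and 8.66 log2 CPM in the control libraries and 8.83, 8.66, 8.80, 8.88 and 8.82 log2 CPM in the APP/PS1 libraries. The groups overlapped through replicate 2 alone, whose difference was -0.15 where the other 4 lay between 0.12 and 0.28. The log2 fold change was 0.12 (95% interval -0.06 to 0.30, adjusted p = 0.781 by limma). A small RNA gene on the same strand, Gm22637, overlaps Fermt2 and had a mean of 0.73 log2 CPM. Another gene on that strand, 9630050E16Rik, also overlaps Fermt2 and had no row. Reads that Fermt2 shares with an overlapping gene could have been counted for either or for neither.

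The integrin adhesion list did not hold Ptk2b. Of its genes, 31 of 32 were measured, 21 higher and 10 lower, with a median of 0.02, and 0 passed the test. Its ends were taken among the 30 genes with a mean of at least 1 log2 CPM. Highest were Fyn, a Src family kinase, with a log2 fold change of 0.19, and Parvg, a parvin of blood cells, with 0.18. Lowest were Itga4, an integrin chain of leukocytes, with -0.33, and Src with -0.18. Efs, which lay below that mean, had -0.88 and was lower in 5 of 5 pairs.

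Inpp5d and Plcg2, the risk-locus genes of phosphoinositide and immune receptor signalling, overlapped between the groups. Inpp5d encodes SHIP1, a lipid phosphatase that restrains signalling in blood cells, and lies at chr1:87620312-87720507 on the plus strand. It gave 5.68, 5.79, 5.81, 5.76 and 5.80 log2 CPM in control and 5.83, 5.72, 5.70, 5.76 and 5.71 log2 CPM in APP/PS1. The groups overlapped, with pair 1 higher by 0.15, pair 4 level and the other 3 pairs between -0.11 and -0.06. Its log2 fold change was -0.02 (95% interval -0.16 to 0.11, adjusted p = 0.946 by limma). Plcg2, a phospholipase C that acts below immune receptors, lies at chr8:117498291-117635142 on the plus strand. It gave 5.96, 6.27, 6.18, 5.99 and 6.01 log2 CPM in control and 6.26, 5.96, 6.06, 6.26 and 6.23 log2 CPM in APP/PS1. Pairs 1, 4 and 5 were higher by 0.22 to 0.30 while pairs 2 and 3 differed by -0.31 and -0.12, for a log2 fold change of 0.07 (95% interval -0.19 to 0.34, adjusted p = 0.903 by limma). Of the list of this role 23 of 34 genes were measured, 10 higher and 13 lower, with a median of -0.0059 and 0 past the test. Its ends were taken among the 21 genes with a mean of at least 1 log2 CPM. Highest was Pik3cb, a catalytic subunit of PI3 kinase, with 0.17 in 5 of 5 pairs (adjusted p = 0.575 by limma). Inppl1 (SHIP2) followed with 0.08. Lowest were Inpp4b, a lipid phosphatase, with -0.64, and Dok3, an adaptor of immune cells, with -0.40.

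Abca7, a transporter of phospholipids, lies at chr10:79996494-80015572 on the plus strand and varied little between libraries. Control libraries gave 6.42, 6.53, 6.51, 6.49 and 6.42 log2 CPM and APP/PS1 libraries 6.56, 6.45, 6.48, 6.50 and 6.57 log2 CPM. The groups overlapped, and the log2 fold change was 0.04 (95% interval -0.09 to 0.17, adjusted p = 0.895 by limma). In the list of ABC lipid transport, 13 of 16 genes were measured, 4 higher and 9 lower, with a median of -0.04 and 0 past the test. Its ends were taken among the 11 genes with a mean of at least 1 log2 CPM. Toward the high end stood Abca1, which exports cholesterol, with 0.13. At the low end, Lrp1, an endocytic receptor for lipoproteins, had -0.55 (adjusted p = 0.569 by limma, lower in 4 of 5 pairs). Nr1h3, the sterol-sensing receptor LXR alpha, followed with -0.21 (adjusted p = 0.608 by limma, lower in 5 of 5).

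Each gene was then set beside its close relatives, of which 14 of 17 were measured (Amph, Bin2 and Fermt1 had no row). The risk-locus gene was the stronger relative in some families and the weaker in others. Per kb of exon, Fermt2 was 51.7-fold above Fermt3, the kindlin of blood cells, and Cd2ap was 17.2-fold above Sh3kbp1. Rin3 was 3.24-fold above Rin1 and 1.23-fold above Rin2, and Abca7 was 1.26-fold above Abca1 and 1.55-fold above Abca2. The length of the longest transcript was not tried for the relatives. Sorl1 was 167-fold below Sort1 (sortilin), the sorting receptor of the same family, and 1.37-fold above Sorcs2. The gap to Sorcs2, 0.45 log2 units, was within the SD of Sorl1 over the libraries (0.72), so their order cannot be read. Ptk2b was 9.46-fold below Ptk2, which encodes focal adhesion kinase. Inpp5d was 3.23-fold below Inppl1 and Plcg2 was 4.14-fold below Plcg1, the widely expressed members of those pairs. With no row for Cass4, its relatives Bcar1 and Nedd9 stood at 4.46 and 4.97 log2 CPM per kb and Efs at -2.22.

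The differences between the groups were also compared within families, over 11 pairs of a gene and its relative. For Sorl1 against Sort1, whose own log2 fold change was 0.01, the change of Sorl1 differed by -1.13 ± 0.76 log2 units (SD of 5 pairs), in 5 of 5 pairs (exact sign-flip p = 0.062, adjusted over the 11 comparisons 0.344). For Ptk2b against Ptk2, also at 0.01, the change of Ptk2b differed by -0.51 ± 0.35 log2 units, in 5 of 5 pairs (exact sign-flip p = 0.062, adjusted 0.344). The design could give no smaller p, so neither difference could pass. The other 9 comparisons had exact p values of 0.1875 or more. Sorcs2, the weakly expressed relative of Sorl1, had a log2 fold change of -0.86 (95% interval -1.76 to 0.03), and its difference from Sorl1 was -0.26 ± 0.39 log2 units. Efs, the weakest relative of Cass4, had -0.88 and was lower in 5 of 5 pairs (adjusted p = 0.537 by limma with the pairs and 0.0300 without), on as few as 7 adjusted counts. Rin2 was higher in 5 of 5 pairs by 0.14 (adjusted p = 0.569 with the pairs and 0.0187 without), with 7.16, 7.10, 7.18, 7.14 and 7.19 log2 CPM in control and 7.29, 7.34, 7.27, 7.31 and 7.26 log2 CPM in APP/PS1.

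**Figure D3:**
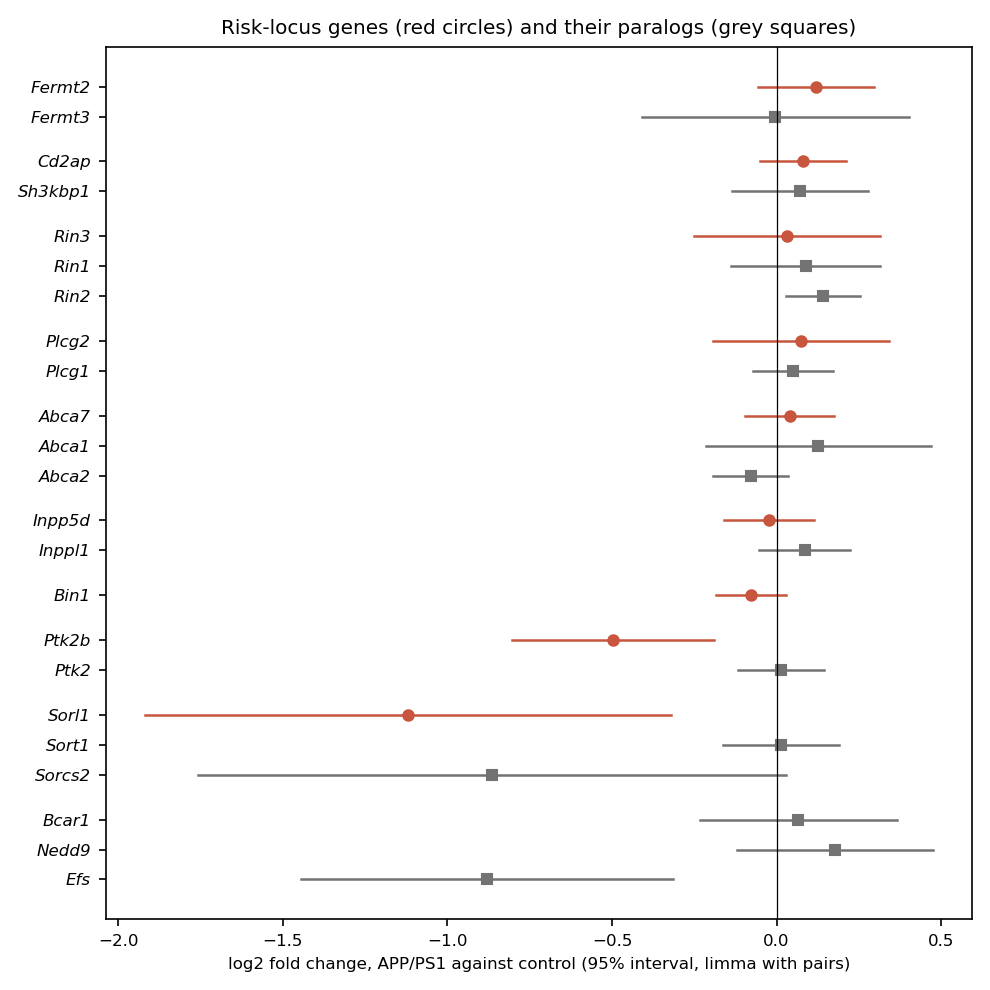
Log2 fold change of APP/PS1 against control (horizontal axis) with its 95% interval from limma with the pairs, for the 9 risk-locus genes (red circles) and 14 relatives (grey squares), grouped by family from the highest level to the lowest, with the relatives of Cass4 last. Among the risk-locus genes the intervals of Ptk2b (-0.80 to -0.19) and Sorl1 (-1.92 to -0.32) lie below 0, unadjusted, while those of Ptk2 and Sort1 are centred near 0.

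The differences of Sorl1 and Ptk2b were uneven between pairs, and markers of other cells were uneven too. For Sorl1 the paired differences 1 to 5 were -1.55, -0.15, -1.10, -0.47 and -2.32 log2 units, and for Ptk2b they were -0.98, -0.29, -0.39, -0.63 and -0.19. The median mural marker differed by -1.61, -0.27, -0.66, -1.45 and 0.03 log2 units in the same pairs, the same order of pairs as for Ptk2b, an order noticed after the values were seen. All 11 of 11 mural markers were lower in APP/PS1 (3 of them in all 5 pairs, 0 past the test), with summed levels of 624 to 1050 CPM in control and 325 to 628 CPM in APP/PS1, led by Rgs5 at 8.50 log2 CPM. In bulk libraries, fewer cells of a type and less RNA per cell cannot be told apart.

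Neuronal and glial markers were uneven in other ways. The median neuronal marker differed by -0.66, 0.08, -0.67, -1.13 and -0.26 log2 units in pairs 1 to 5, with 6 of 7 measured genes of 12 lower. Their summed level was 122 to 144 CPM in control and 114 to 135 CPM in APP/PS1, most of it from Stmn2 at 6.66 log2 CPM, and Syt1, Rbfox3, Tubb3, Nefl and Nefm had no row. The median oligodendrocyte marker differed by -1.77, 0.04, -0.88, -1.34 and -1.30 log2 units, with 11 of 11 lower and 5 of them in all 5 pairs. Their summed level was 804 to 1188 CPM in control and 679 to 927 CPM in APP/PS1. Most of it came from Mal at 9.60 log2 CPM, so the sum mainly follows that gene. Mal had a log2 fold change of -0.09 and was lower in 2 of 5 pairs. Mag was at 0 adjusted counts in at least 1 library. The median astrocyte marker differed by -2.60, 0.45, -1.53, -0.74 and -0.20 log2 units, with 9 of 10 lower. Their summed level was 181 to 221 CPM in control and 180 to 223 CPM in APP/PS1. Most of it came from Gja1 at 7.22 log2 CPM, the 1 gene that was higher, with a log2 fold change of 0.27. None of these markers passed the test. In pair 2, where Sorl1 differed least, the neuronal, oligodendrocyte and astrocyte medians were all above 0. In pair 5, where Sorl1 differed most, the neuronal and astrocyte medians were the closest to 0 of their negative values, while the oligodendrocyte median was -1.30. The part of these cells in the values of Sorl1 and Ptk2b was not tested.

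The remaining lists took both signs over the pairs. The median marker of microglia and leukocytes differed by 0.59, 0.22, -0.57, 0.07 and -0.60 log2 units, with 7 of 12 higher. For platelets and erythroid cells it differed by -1.36, -3.31, -3.97, 0.73 and 2.25 log2 units, so 2 of the 5 pairs were higher, although 5 of 5 measured genes of 12 were lower on average (median -1.12), with summed levels of 32.1 to 244 CPM in control and 16.5 to 155 CPM in APP/PS1. Genes of the dissociation response, which are induced when tissue is digested, were higher on average in 15 of 15 (median 0.10, 0 past the test), led by Fos at 12.09 log2 CPM. Their median differed by -0.05, -0.04, 0.04, 0.47 and 0.22 log2 units in pairs 1 to 5, so the rise was uneven. The part of these genes in the results was not tested. The endothelial markers had a median log2 fold change of 0.03, with 11 higher and 5 lower.

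**Figure D4:**
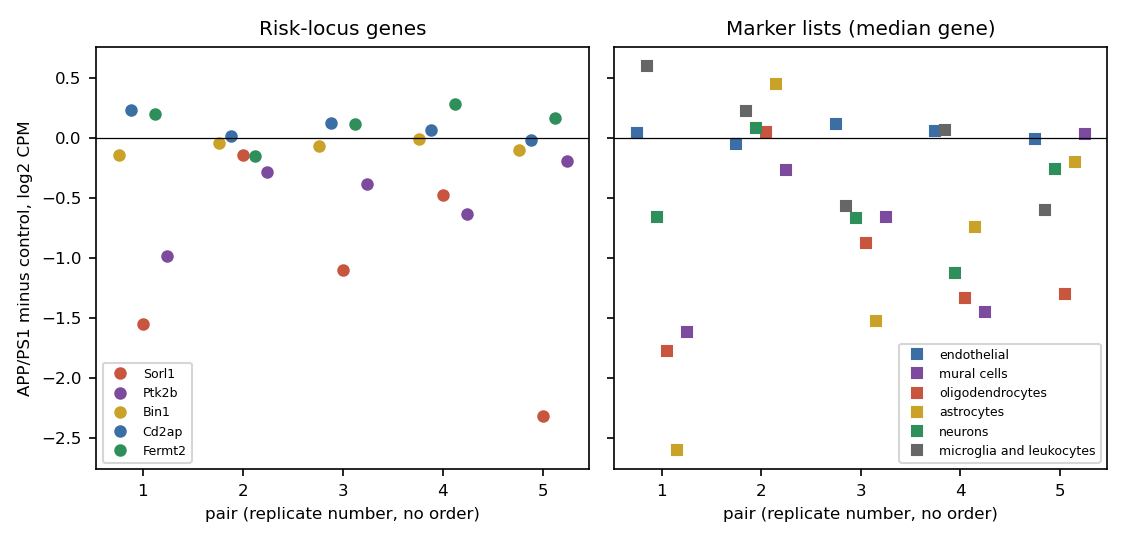
Difference of APP/PS1 minus control in log2 CPM (vertical axis) in each of the 5 pairs (horizontal axis, replicate numbers in no order), for 5 risk-locus genes (left, circles) and for the median gene of 6 marker lists (right, squares). Sorl1 and Ptk2b are below 0 in all 5 pairs, from -0.15 to -2.32 and from -0.19 to -0.98, and the endothelial median stays within 0.11 of 0 while those of mural and glial markers reach -1.61 and -2.60.

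The genes whose 5 paired differences lay nearest to those of 3 risk-locus genes were named by root mean square distance over all 14106 genes. For Sorl1 they were Cyfip2, a subunit of the actin-regulating WAVE complex (distance 0.373 log2 units), Kif21b, a kinesin (0.419), and Nrxn3, a presynaptic adhesion protein (0.426), with log2 fold changes of -0.81, -1.15 and -0.96. For Ptk2b they were Lipg, the endothelial lipase (0.102), Irs2, an adaptor of insulin signalling (0.133), and Adgrg6, an adhesion receptor (0.139), with log2 fold changes of -0.48, -0.48 and -0.53. Adgrg6 was the most expressed of these, at a mean of 7.11 log2 CPM. For Fermt2 they were Arih1, a ubiquitin ligase (0.0276), Luzp1 (0.0325) and the Ets factor Elf1 (0.0331), with log2 fold changes of 0.11, 0.13 and 0.14. None of the 9 passed the test, and likeness over 5 pairs is a description only.

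Of the other Alzheimer risk loci, 46 of 65 genes were measured. APP/PS1 was higher for 24 and lower for 22, the median log2 fold change was 0.01, and 0 passed the test. In this list 3 genes were higher in all 5 pairs (2.99% of all genes) and 0 were lower in all 5 (5% of all genes). The ends of the list were taken among the 42 genes with a mean of at least 1 log2 CPM. Highest were Adamts4, a matrix protease, with 0.25 (95% interval -0.82 to 1.31), and Iqck with 0.21. Lowest was Il34, a ligand of the microglial receptor CSF1R, with -0.89 (95% interval -1.73 to -0.04, adjusted p = 0.604 by limma). Il34 was lower in 4 of 5 pairs. Maf, a transcription factor, followed with -0.30. Il34 gave 2.20 ± 0.37 log2 CPM in control and 1.31 ± 0.54 log2 CPM in APP/PS1 (SD, n = 5).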

How the data were processed

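Bulk RNA sequencing of BECs gave 10 libraries, 5 per group, grouped by their labels. The authors used STAR (mm10) for alignment and HTSeq-count for counts per gene, filtered low genes with edgeR and deposited batch-corrected log2 CPM, with a prior count of 3. In the stated order, ComBat followed log CPM. All values nevertheless converted to whole adjusted counts (tolerance 0.01), so the correction used is not settled here. These counts are not reads, and no counting error is given for them. Strand use in counting, tool versions and pooling are not given in the sources used here. Antisense or opposite-strand genes overlap Bin1, Sorl1 and Plcg2, so reads of those pairs cannot be told apart without strand.

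With R 4.3.3 and limma 3.58.1, lmFit and eBayes were fitted to all 14106 genes with genotype and replicate number (4 residual degrees of freedom), with Benjamini-Hochberg adjustment and a threshold of 0.05. The deposited correction ties same-numbered libraries, which the labels place in 1 batch. Their deviations correlated between -0.999 and -0.989, against -0.0483 to 0.442 for other numbers, a sign set by the correction. Single genes were tested by an exact sign-flip test. The scripts were tested on simulated data. Levels per kb are the mean log2 CPM less the log2 of exon length, from GENCODE M21. Fold changes are on the log2 scale with the prior count and understate those of low genes.

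The genes, lists and paralogs were chosen with earlier results of these data known. Genes named are the risk-locus genes, their paralogs, the 2 largest and 2 smallest log2 fold changes of each list (mean of at least 1 log2 CPM), the 3 genes nearest to each of the 3 with the largest difference, and the top gene of each marker list. A gene that the rule named in 1 role list and 1 in a marker list are not reported here. Alternatives were the fit without pairs, the 4 batches of the labels, a trend in eBayes, voom, 2 other scalings, a prior count of 0.125, a filter on low means, a threshold of 0.10 and leaving out each pair. Promoters were from RefSeq.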

Additional observations from a re-analysis of the deposited data

Results flagged for a closer look

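In the 46 groups of 5 libraries of the risk-locus genes and their relatives, 5 libraries stood apart from the rest of their group by Dixon's criterion (a gap of over 0.71 of the range), where chance gives about 5% of groups, or 2.3. None was of a risk-locus gene. Rin1 was lowest in control replicate 1 at 4.35 log2 CPM, with the nearest control library at 4.56. Inppl1 was lowest in control replicate 5 at 7.06 (nearest 7.17) and highest in APP/PS1 replicate 5 at 7.34 (nearest 7.23). Nedd9 was highest in control replicate 2 at 7.82 (nearest 7.53) and lowest in APP/PS1 replicate 2 at 7.45 (nearest 7.77). For Inppl1 and Nedd9 the libraries of 1 pair stand apart on opposite sides, and since paired libraries are near mirror images each of these is 1 observation.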

How the results depend on the processing

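The fits with and without the replicate block differed most. With the block, limma called 0 of 14106 genes and 0 of the 9 risk-locus genes (1133 genes at an unadjusted p under 0.05). Without the replicate block it called 648 genes and 2 risk-locus genes, Sorl1 (log2 fold change -1.12, adjusted p = 0.0441) and Ptk2b (-0.50, adjusted p = 0.0242). The 8 residual degrees of freedom of that fit do not count the batch means that the authors' correction had removed. It changed no other call among the 9. The 4 batches of the labels gave 1 gene called, and leaving out each pair gave 0 to 5 genes (5 without replicate 2 and 1 without replicate 5), with 0 risk-locus genes called in each. Replicates 4 and 5 share 1 label batch, yet each was mirrored only within its own number. Rank correlations were -0.997 and -0.992 within the numbers, against -0.048 and -0.043 across them. The degrees of freedom of the fit with 4 batches therefore also leave a removed mean uncounted. A threshold of 0.10 called 0 of both.

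Sorl1, Ptk2b and Bin1 were lower under each alternative that gave a value (Sorl1 has none under the filter on low means). With a pair left out, the log2 fold change was between -1.36 and -0.82 for Sorl1, between -0.57 and -0.37 for Ptk2b and between -0.09 and -0.06 for Bin1. Adjusted p ranged over the alternatives from 0.0441 to 0.934 for Sorl1 and from 0.0242 to 0.929 for Ptk2b. Rin3 reversed to -0.0055 under scaling by library size alone, and with a pair left out it ranged from -0.055 to 0.13, with -0.026 without replicate 1 and -0.055 without replicate 4. The cause was not tested. The ranges with a pair left out were 0.016 to 0.17 for Plcg2, 0.08 to 0.19 for Fermt2, 0.04 to 0.11 for Cd2ap, 0.011 to 0.07 for Abca7 and -0.07 to -0.0010 for Inpp5d. Leaving out a pair gave 4 to 5 genes higher, 3 to 4 of 1 direction and a median of -0.03 to 0.07. Scaling by library size alone moved the median of all genes to -0.04, and of genes with an unadjusted p under 0.05 it made 86.3% lower, against 73.5% in the deposited scaling, 60.2% without the block and 58.9% without replicate 2. Libraries of replicate 1 are the shallowest.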
